A study of Mus musculus with 3 samples.

Results

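A set of 10 helix-loop-helix genes was followed in sorted cells of the fetal kidney. They are the mesenchymal factors Tcf21, Tcf15, Twist1 and Twist2, the E proteins Tcf4 and Tcf12, and the inhibitors Id1, Id2, Id3 and Id4. The set makes up 10 of the 18193 genes with a value, and 24 probe sets that the platform annotation assigns to 1 of these symbols alone. The cells came from kidneys of Meis1-EGFP mice, line Tg(Meis1-EGFP)FO156Gsat, on a CD-1 background at E15.5 (Theiler stage 23), of unknown sex. Cells that made the green protein were sorted, so the group is defined by where the Meis1 transgene is active. The samples are named nephrogenic interstitium, while the series title speaks of peripheral blastema. There was 1 group of 3 arrays, each from 1 pool of about 20 kidneys, and all arrays carried the same transgene. No contrast between groups exists, so the questions were which member probe sets exceeded background and how far the pools differed.

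Basic helix-loop-helix factors bind DNA as dimers at short sequences called E-boxes. Tissue-restricted factors such as Tcf21 and Twist1 join with E proteins, which many cell types make. Id proteins have the helix-loop-helix part but lack the basic part that touches DNA, so an E protein held by an Id protein does not bind. Id genes are well-known targets of BMP signalling. In the kidney, Tcf21 is known from stroma and podocytes, and its loss disturbs branching and glomeruli.

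RefSeq promoter entries (GRCm38.p6) were read for 7 of the 10 members, and the 250 bases before the start are shown for 4 of them. These are the members with an entry whose signal was highest on replicate 1 after median centring, as described with the differences between pools. No entry was found for Id1 and Tcf15, and Tcf4 was not read. The Tcf21 stretch is chr10:22820144-22820393 on the minus strand and that of Id2 is chr12:25096093-25096342 on the minus strand. The Id3 stretch is chr4:136143572-136143821 and that of Id4 is chr13:48260866-48261115, both on the plus strand. Capitals mark E-boxes (CANNTG), the GC-rich sequence GGCGCC, and CCAAT or its reverse complement ATTGG, searched on both strands.
Tcf21: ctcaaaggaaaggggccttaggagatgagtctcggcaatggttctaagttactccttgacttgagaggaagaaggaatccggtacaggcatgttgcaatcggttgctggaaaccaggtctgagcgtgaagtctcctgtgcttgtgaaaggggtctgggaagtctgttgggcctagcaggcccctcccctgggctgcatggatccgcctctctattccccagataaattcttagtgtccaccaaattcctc
Id2: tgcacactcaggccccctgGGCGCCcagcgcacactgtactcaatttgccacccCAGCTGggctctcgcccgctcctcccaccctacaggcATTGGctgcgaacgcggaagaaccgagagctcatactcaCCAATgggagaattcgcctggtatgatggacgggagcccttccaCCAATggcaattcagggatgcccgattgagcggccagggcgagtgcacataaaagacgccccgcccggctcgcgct
Id3: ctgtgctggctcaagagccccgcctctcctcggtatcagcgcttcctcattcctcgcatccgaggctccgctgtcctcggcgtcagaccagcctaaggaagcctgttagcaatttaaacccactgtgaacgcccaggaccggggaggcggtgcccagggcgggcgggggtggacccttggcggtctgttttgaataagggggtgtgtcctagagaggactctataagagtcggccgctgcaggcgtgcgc
Id4: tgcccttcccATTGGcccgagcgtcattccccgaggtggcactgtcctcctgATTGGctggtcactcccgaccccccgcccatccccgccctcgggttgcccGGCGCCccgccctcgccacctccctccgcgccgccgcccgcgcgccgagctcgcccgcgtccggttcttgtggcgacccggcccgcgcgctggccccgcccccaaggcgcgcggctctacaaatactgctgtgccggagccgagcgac

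The Id2 stretch held an E-box, CAGCTG, starting 196 bases before the start, and GGCGCC at 231 bases. It also held CCAAT in either orientation at 159, 120 and 76 bases. The Id4 stretch held GGCGCC at 148 bases and ATTGG at 240 and 198 bases before the start. The stretches of Id3 and Tcf21 held none of these letters. No match overlapped another. Among all 32851 promoter entries, 66.2% held CANNTG, 9.59% held GGCGCC and 33.8% held CCAAT or ATTGG in the same window. The 4 stretches therefore shared no one of these motifs. Of the members whose sequence is not shown, Twist1 and Twist2 each held a single CCAAT, at 89 and 63 bases. Tcf12 has 3 entries, of which 1 held the E-box CAGCTG at 240 bases, another CAAGTG at 149 bases, and the last ATTGG at 238 and CCAAT at 118 bases.

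Across the arrays, the deposited signals had medians of 143, 162 and 187 in replicates 1, 2 and 3. As background level, each array had the 95th percentile of its 72 chemosensory receptor genes, made in sensory neurons, at signals of 135, 185 and 168. Distances below are log2 signal minus that level, tested above 0 with limma. The SE given with each distance is limma's moderated SE. It draws on the spread of all probe sets or genes, and is not that of the 3 values alone. All 12 genes of a nephrogenic interstitium list were above background, against 57.3% of all genes. Cap mesenchyme (7 of 11), podocyte (3 of 5) and endothelial genes (7 of 12) were above in 63.6%, 60.0% and 58.3% of cases, near the share of all genes. Early nephron genes (4 of 8, 50.0%) were also near it, and ureteric bud genes (4 of 10, 40.0%) were below it. Macrophage and leukocyte genes were above in 1 of 10 cases, erythroid genes in 1 of 8, and skeletal muscle and somite genes in 2 of 12. The markers of the interstitium name in the labels were therefore called in full. That list holds Meis1, whose transgene was used to sort the cells. It was also chosen with earlier results of these data known, so it does not test the label. Cap mesenchyme, podocyte, endothelial and early nephron counts did not set those cell types apart from genes in general. Macrophage and leukocyte, erythroid, and muscle and somite genes were called in 10.0%, 12.5% and 16.7% of cases, far below the share of all genes.

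All 10 members were above background by their probe set with the highest signal, against 57.3% of all genes. Their median distance was 3.96 log2 units, close to the 3.89 of all genes above background and above the 1.52 of all genes tested. Of the 24 probe sets 16 were above background, against 42.0% of all 45037 probe sets. None of the 5 members with several probe sets had every one of them above background (0 of 5). Among all genes with several probe sets and at least 1 above background, 2254 of 6732 (33.5%) had every one above. Probe sets differ in affinity, so levels of different members are not ranked here.

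**Figure D1:**
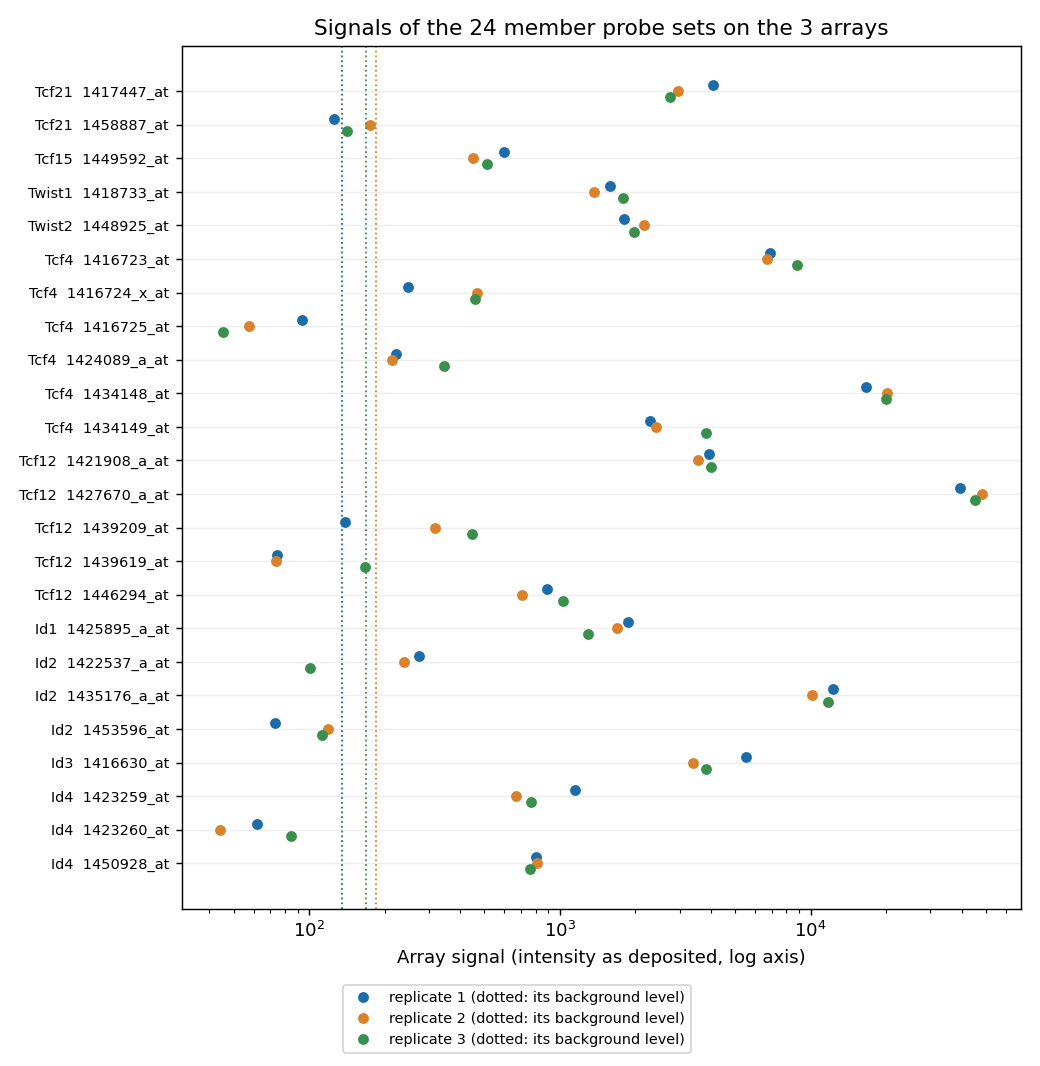
Array signal (log axis) of each of the 24 member probe sets on replicates 1, 2 and 3, with a dotted line at the background level of each array. Signals run from 44.0 (Id4, 1423260_at, replicate 2) to 48414 (Tcf12, 1427670_a_at, replicate 2), and 8 probe sets were not called above background.

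Tcf21, the stromal and podocyte factor, was measured by 2 probe sets that disagreed. Probe set 1417447_at had signals of 4066, 2946 and 2748 in replicates 1, 2 and 3. All were far above the level, by 4.91, 3.99 and 4.03 log2 units, and replicate 1 was the highest. The mean distance was 4.31 ± 0.28 (SE, n = 3; 19.9-fold; limma adjusted p = 6.39e-05). Probe set 1458887_at had signals of 125, 174 and 141, below the level on every array, at -0.15 ± 0.21 (limma adjusted p = 1). The Tcf21 call therefore rests on 1 of 2 probe sets.

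Tcf15, also called paraxis and known from somites, had a single probe set, 1449592_at, with signals of 597, 448 and 514. All 3 arrays were above the level, by 2.15, 1.28 and 1.61 log2 units. Its distance was 1.68 ± 0.26 (SE, n = 3; 3.20-fold; limma adjusted p = 0.00213). Myogenic and somite genes beside it were mostly not called: Myod1, which commits cells to muscle, lay at -0.48 ± 0.20 and Myog at -2.60 ± 0.50. The 2 genes of that list above background were Meox2, a mesodermal homeobox gene, at 1.30 ± 0.29 (limma adjusted p = 0.00400) and Tnnt1, a troponin, at 3.03 ± 0.24 (limma adjusted p = 2.13e-05). Meox2 lost its call when probe sets marked _s_at or _x_at, which may cross-hybridise, were left out (0.43, limma adjusted p = 0.0690).

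The Twist genes, factors of mesenchyme and cranial bone, were both above background. Twist1 (1418733_at) had signals of 1588, 1365 and 1782 and lay 3.28 ± 0.25 log2 units above the level (SE, n = 3; 9.73-fold; limma adjusted p = 0.000104). Its paralogue Twist2, also called Dermo1 (1448925_at), had signals of 1796, 2157 and 1981, or 3.61 ± 0.21 above (12.2-fold; limma adjusted p = 4.39e-05). Neither gene had an array near the level: the lowest distances were 2.88 for Twist1 and 3.54 for Twist2, both on replicate 2. The Twist2 signals had an SD of 181 around a mean of 1978. In log2 units after median centring the SD was 0.14, and 43.0% of genes above background had a lower one.

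The E protein Tcf4, known as E2-2, was measured by 6 probe sets, of which 4 were above background. Probe set 1434148_at had signals of 16630, 20228 and 19967, at 6.87 ± 0.21 log2 units (SE, n = 3; 117-fold; limma adjusted p = 1.36e-05). Also called were 1416723_at with 6912, 6712 and 8840 (5.53 ± 0.24), and 1434149_at with 2283, 2426 and 3813 (4.10 ± 0.25). The fourth, 1416724_x_at, had 248, 465 and 458 and lay at 1.22 ± 0.24 (limma adjusted p = 0.00498). Its ID marks possible cross-hybridisation. Its call was lost with a level from tissue-restricted genes (0.56, limma adjusted p = 0.110). Probe set 1424089_a_at exceeded the level on all arrays with 221, 214 and 346 but missed the threshold (0.65 ± 0.26; limma adjusted p = 0.0624). It passed with a common level for the arrays (0.65, limma adjusted p = 0.0462), at the 90th percentile (1.00, adjusted p = 0.00984) and without the dimmest 25% of probe sets (0.65, adjusted p = 0.0173). Probe set 1416725_at lay below the level on every array, with 93.4, 57.7 and 45.3 (-1.37 ± 0.34).

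Tcf12, the E protein known as HEB, had 3 of 5 probe sets above background. Probe set 1427670_a_at had signals of 39322, 48414 and 45358, at 8.10 ± 0.21 log2 units (SE, n = 3; 274-fold; limma adjusted p = 1.36e-05). Probe sets 1421908_a_at (3920, 3544 and 4021; 4.57 ± 0.24) and 1446294_at (890, 707 and 1029; 2.42 ± 0.26) were also above on every array. Probe set 1439209_at lay 0.05 above the level on replicate 1, against 0.77 and 1.41 on the others. Its mean of 0.74 ± 0.33 missed the threshold (limma adjusted p = 0.0835). It passed without replicate 1 (1.09, limma adjusted p = 0.0420), at the 90th percentile (1.09, adjusted p = 0.0210) and without the dimmest 25% of probe sets (0.74, adjusted p = 0.0165). Probe set 1439619_at, with 74.5, 73.8 and 167, was at or below the level on each array (-0.73 ± 0.32). The remaining E protein gene, Tcf3, which encodes E12 and E47, was above background at 4.42 ± 0.25 (limma adjusted p = 4.74e-06), so all 3 E protein genes were called.

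**Figure D2:**
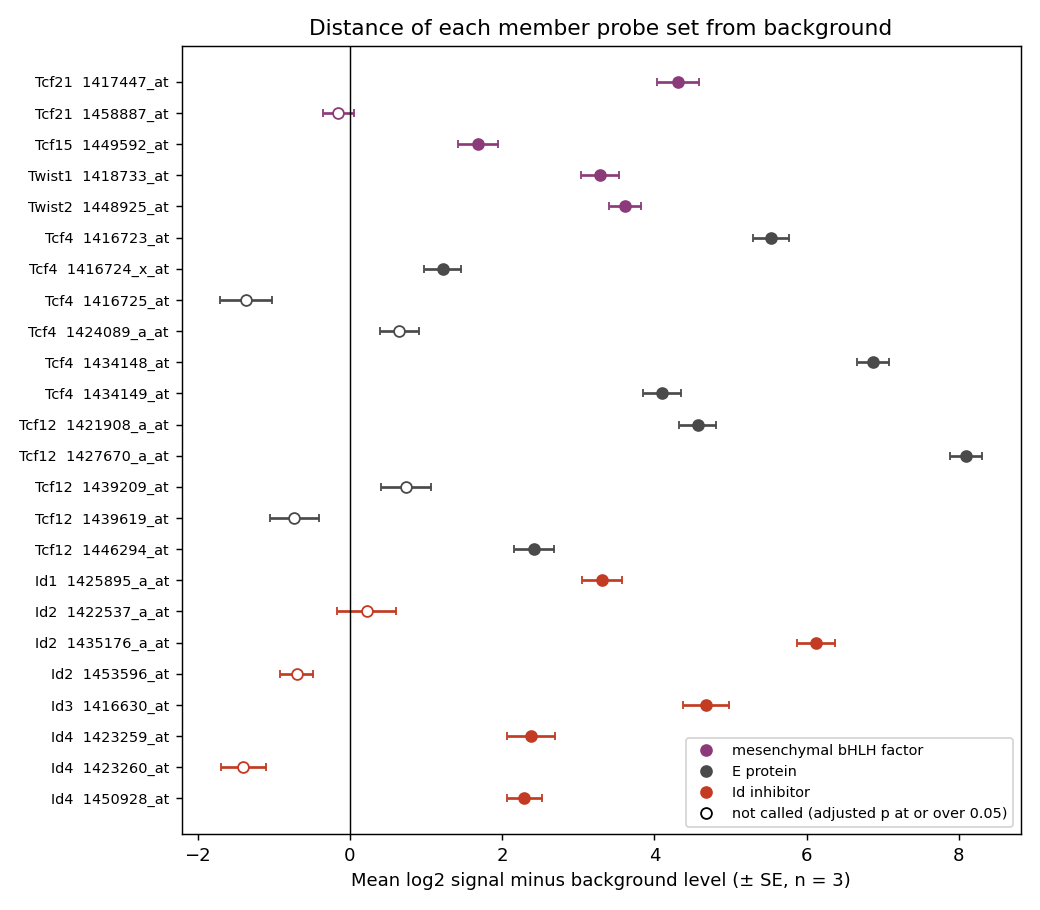
Mean log2 distance of each member probe set from the background level (horizontal axis, ± moderated SE from limma, n = 3), coloured by role. Open points mark probe sets not called. The 16 called probe sets lie between 1.22 (Tcf4, 1416724_x_at) and 8.10 (Tcf12, 1427670_a_at).

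All 4 Id genes were above background. Id1 (1425895_a_at) had signals of 1877, 1691 and 1296 and lay 3.31 ± 0.26 log2 units above the level (SE, n = 3; 9.93-fold; limma adjusted p = 0.000132). Id3 (1416630_at) had signals of 5517, 3380 and 3827, with replicate 1 the highest, and lay at 4.68 ± 0.30 (25.7-fold; limma adjusted p = 6.10e-05). Both are known as early targets of BMP signalling and of serum. Each has a single probe set here.

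Id2, which also binds the retinoblastoma protein, was measured by 3 probe sets, of which 1 was above background. Probe set 1435176_a_at had signals of 12229, 10113 and 11742 and lay at 6.13 ± 0.25 log2 units (SE, n = 3; 70.2-fold; limma adjusted p = 1.64e-05). Probe set 1422537_a_at had 274, 239 and 101, above the level on replicates 1 and 2 and below it on replicate 3 (0.22 ± 0.39; limma adjusted p = 0.627). Its distance turned negative without replicate 1 (-0.18), at the 99th percentile (-0.27) and with a level from tissue-restricted genes (-0.44). Probe set 1453596_at, with 72.9, 119 and 112, was below the level on every array (-0.70 ± 0.22).

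Id4 was measured by 3 probe sets that the annotation ties to the same source sequence, and 2 of them were above background. Probe set 1423259_at had signals of 1151, 668 and 765 and lay at 2.38 ± 0.31 log2 units (SE, n = 3; 5.19-fold; limma adjusted p = 0.00105). Probe set 1450928_at had 800.4, 813 and 757 and lay at 2.29 ± 0.23 (4.90-fold; limma adjusted p = 0.000314). Both were called, but the first was highest on replicate 1 and the second was nearly level over the arrays. Probe set 1423260_at, with 61.9, 44.0 and 84.7, was below the level on every array (-1.40 ± 0.30).

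Other genes of the pathway were counted from fixed lists. Tissue-restricted helix-loop-helix factors of other lineages were above background in 2 of 35 cases (5.71%, against 57.3% of all genes), with a median distance of -1.42 log2 units. The 2 were Scx, the tendon factor, at 1.94 ± 0.20 (limma adjusted p = 8.63e-05) and Mesp2, a somite segmentation factor, at 0.62 ± 0.20 (limma adjusted p = 0.0191). Neither call was stable: Scx lay at -0.72 once the _s_at and _x_at probe sets were left out. Mesp2 missed the threshold without replicate 2 (0.60, adjusted p = 0.0847), without replicate 3 (0.67, adjusted p = 0.133), at the 99th percentile (0.14) and with a level from tissue-restricted genes (-0.03). Msc, a factor of facial and body muscle, lay at -0.82 ± 0.47 and Hand1, a heart and trophoblast factor, at -1.99 ± 0.35.

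Receptors and Smads of the BMP pathway, upstream of Id genes, were above background in 11 of 13 cases (84.6%), with a median distance of 4.07 log2 units. The type I receptor Bmpr1a lay at 7.11 ± 0.21 (limma adjusted p = 7.78e-07), Bmpr1b at 3.41 ± 0.27 (adjusted p = 2.25e-05) and the type II receptor Bmpr2 at 7.82 ± 0.20 (adjusted p = 7.78e-07). Averaging the probe sets of a gene ended the Bmpr1b call (0.47, limma adjusted p = 0.134). The endothelial receptor Acvrl1 (0.07 ± 0.27) and the signal transducer Smad9 (-2.41 ± 0.69) were not called. Proteins known to bind Id proteins outside the helix-loop-helix family were above in 7 of 9 measured cases (77.8%), among them Rb1 at 4.02 ± 0.22 and its relatives Rbl1 at 5.83 ± 0.23 and Rbl2 at 3.66 ± 0.24 (limma adjusted p of 8.73e-06 or less). The B-cell factor Pax5 (-2.50 ± 0.43) and the nephron factor Pax8 (-0.36 ± 0.26) were not called.

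Mesenchymal genes often studied with Twist1 were above background in 8 of 10 cases (80.0%), with a median distance of 5.05 log2 units. The zinc finger repressors Snai2, Zeb1 and Zeb2 lay at 7.47 ± 0.20, 7.34 ± 0.20 and 3.86 ± 0.23 (limma adjusted p of 5.37e-06 or less). Their relative Snai1 (-0.39 ± 0.21) and the epithelial cadherin Cdh1 (-0.79 ± 0.26) were not called.

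The pools differed in the members' signals. To compare pools, each array was centred on the median of all genes, since distances from the background level also carry the level itself, which was lowest on replicate 1. Id4 (1423259_at) deviated from its mean by 0.44, -0.32 and -0.12 log2 units in replicates 1, 2 and 3, and Id3 by 0.39, -0.29 and -0.10. Tcf21 deviated by 0.33, -0.12 and -0.21 and Id1 by 0.21, 0.08 and -0.29. These 4 genes had replicate 1 on top. Replicate 1 exceeded the mean of the others 1.58-fold for Id4, 1.51-fold for Id3, 1.40-fold for Tcf21 and 1.24-fold for Id1. Each array is 1 pool, so these differences have no replicate and no test, and a changed share of cells cannot be told apart from changed RNA per cell.

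Tcf4 and Tcf12 ran the other way, except when arrays were centred on the background level. For Tcf12, replicate 1 minus the mean of the others was -0.28 with the median but only -0.05 with quantile normalization. On the highest probe sets of both genes after median centring, Tcf4 deviated by -0.20, 0.11 and 0.09 log2 units. Tcf12 deviated by -0.19, 0.14 and 0.05, with replicate 1 lowest in both. The E protein gene outside the set, Tcf3, did not follow them: its signals were 4136, 3610 and 2783, with replicate 1 at 0.36 above the mean of the others. Twist2 also had replicate 1 lowest (-0.15, 0.13 and 0.02), while Twist1 had replicate 3 highest (deviation 0.20). In all, 6 of the 10 members were highest on replicate 1: Tcf21, Tcf15 and the 4 Id genes (Id2 not with the median of genes above background). Among all genes above background 36.7% were highest there.

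**Figure D3:**
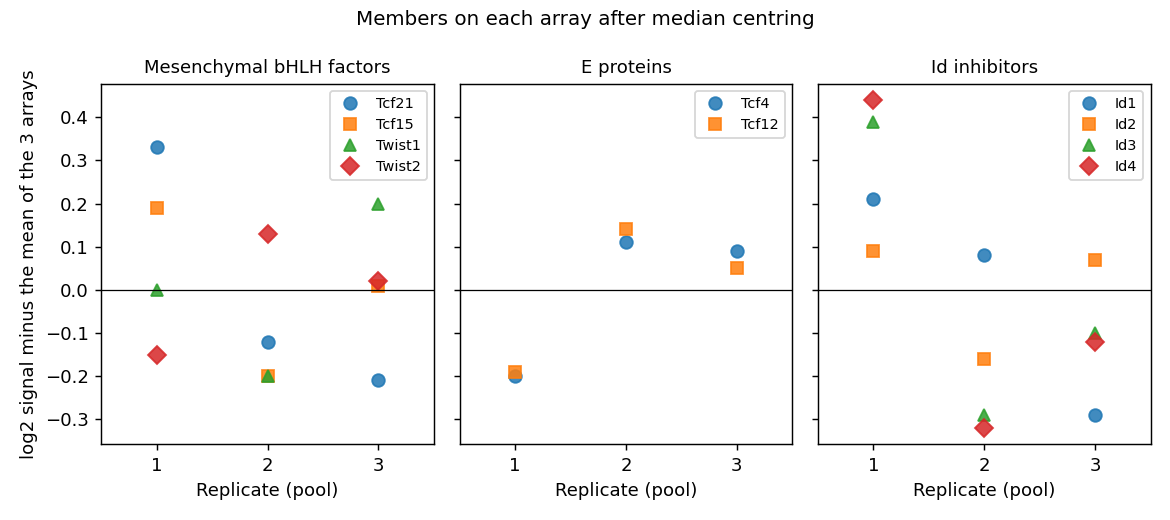
Deviation of each member's log2 signal from its mean over the 3 arrays (vertical axis) by replicate, with 1 panel for each role. Each array was first centred on the median of all genes, at 1 probe set per gene. All 4 Id genes are highest on replicate 1, from 0.09 (Id2) to 0.44 (Id4), while Tcf4 and Tcf12 are lowest there; centring on the background level turns these, and centring on the median of genes above background turns Id2.

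Other probe sets of the same genes did not all follow. The Id4 probe set 1450928_at had replicate 1 minus the mean of the others close to 0 (0.0), against 0.66 for 1423259_at. The Tcf4 probe sets 1416723_at and 1434149_at had replicate 3 highest, with deviations of 0.26 and 0.48, and replicate 1 minus the mean of the others at -0.18 and -0.44. For Tcf12, probe sets 1421908_a_at and 1446294_at had replicate 1 at 0.03 above the mean of the others, against -0.28 for 1427670_a_at. The second Tcf21 probe set was below the level, and its values are not read as a difference. Over all 16 called member probe sets, 6 were highest on replicate 1, 5 on replicate 2 and 5 on replicate 3. Over all called probe sets the shares were 32.6%, 32.7% and 34.7%, so the member probe sets lay near them.

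The spread over the pools was widest for Id4 and Id3. Their SDs were 0.39 and 0.35 log2 units, and 93.8% and 91.0% of all genes above background had a lower SD. The 1000 genes above background nearest in signal had median SDs of 0.20 and 0.16. Tcf21 had an SD of 0.29 (83.3% of genes lower) and Id1 0.26 (79.0%). The others lay between 0.14 and 0.20, and the median over the 10 members was 0.20, against 0.16 for all genes above background.

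The choice of centring moved these values. When the arrays were centred on the background level, 10 of 10 members were highest on replicate 1, but so were 86.8% of all genes above background. With values as deposited and with quantile normalization the number was 6 of 10, as with the median, against 40.9% and 40.6% of all. With the median of genes above background it was 5 of 10, since Id2 moved to replicate 3, against 27.8% of all. Id3, Id4, Tcf21, Tcf15 and Id1 were highest on replicate 1 under all 5 centrings. Among the 5, the background level alone turned the direction of Twist2, Tcf4 and Tcf12 (0.18, 0.11 and 0.13). It also moved Twist1 from -0.001 to 0.41, and quantile normalization brought Tcf12 to -0.05.

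**Figure D4:**
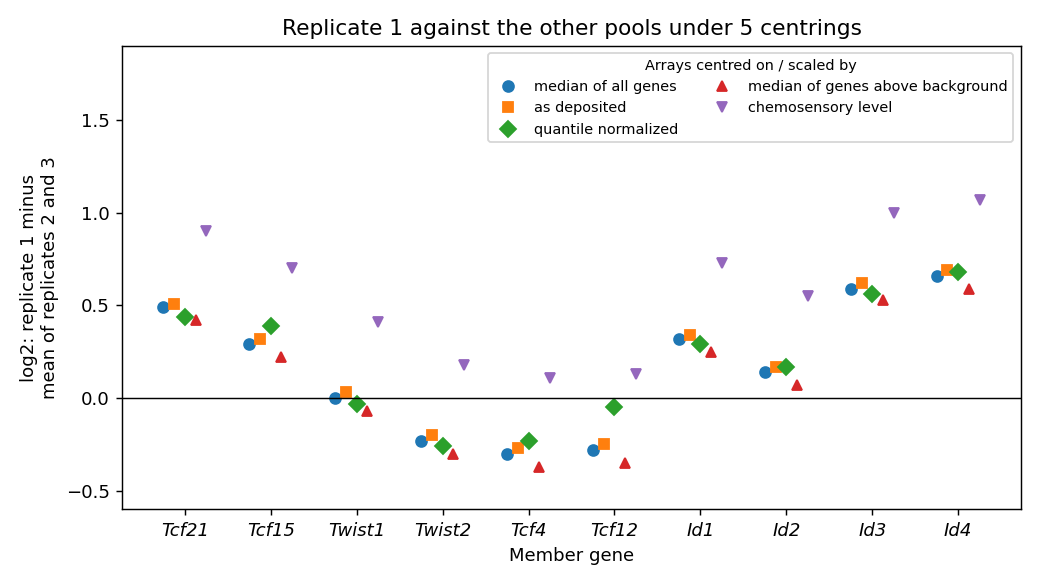
Replicate 1 minus the mean of replicates 2 and 3 (log2, vertical axis) for each member under 5 ways of centring the arrays (symbols). Id4 and Id3 lie highest under each, from 0.59 to 1.07 for Id4, and Twist2, Tcf4 and Tcf12 lie below 0 except with the background level.

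Summed marker signals by cell type also differed between the pools. The sums are of deposited signals without centring, unlike the member differences. After median centring, called genes had median values for replicate 1 minus the mean of the others. These were 0.16 (ureteric bud), 0.08 (podocyte), 0.18 (early nephron), -0.06 (interstitium), -0.09 (endothelium) and -0.28 (cap mesenchyme). Lists with 1 or 2 called genes gave -0.2 (macrophage and leukocyte), 0.08 (erythroid) and 0.43 (muscle and somite). The summed signal of the 10 measured ureteric bud genes was 6097, 4805 and 5925 in replicates 1, 2 and 3, and that of the 5 podocyte genes 6217, 5031 and 5919. Early nephron genes summed to 23017, 20754 and 20506, and the 4 called were above the mean of the other arrays on replicate 1. Single genes carried much of these sums. The cyclin Ccnd1, made in many dividing cells, had 19151, 17724 and 16888, and Foxc2 in the podocyte list 4727, 3618 and 4398. Epcam in the ureteric bud list, called at 4.13 ± 0.24, had 3148, 2398 and 3004. The early nephron gene Wnt4 had replicate 1 minus the mean of the others at -0.40. It was not called (-0.07 ± 0.20), so that value is not read as a difference. Interstitium genes summed to 190409, 209407 and 206783, lowest on replicate 1, and so were endothelial genes (4177, 4313 and 4613), cap mesenchyme genes (46654, 54294 and 48159) and macrophage and leukocyte genes (1098, 1294 and 1112). Erythroid genes (1066, 799 and 847) and muscle and somite genes (2503, 2099 and 2232) were highest there. Few macrophage and leukocyte (1 of 10), erythroid (1 of 8) and muscle and somite genes (2 of 12) were above background. The cap mesenchyme sum held Gdnf (24382, 28877 and 27153) and Sall1 (9444, 14363 and 10398). The erythroid sum held the uncalled Hbb-y (212, 49.0 and 26.9). The muscle and somite sum held Tnnt1 (1462, 1185 and 1320) and Meox2 (543, 343 and 334). Defining genes below the level on the mean included the ureteric receptor Ret (-0.34 ± 0.25), the podocyte gene Nphs1 (-1.66 ± 0.28) and the endothelial gene Pecam1 (-1.64 ± 0.71). Called genes of the same lists included Wnt11 (2.06 ± 0.23), Podxl (1.88 ± 0.22) and Cdh5 (1.31 ± 0.23), in the same order. Averaging the probe sets of a gene ended the Cdh5 call (-0.24). No marker was listed at 0. Immediate early genes, which respond to dissociation, summed to 81868, 83052 and 85290. Between the 3' and 5' control probe sets, the log2 difference was 5.00, 5.39 and 5.26 for Gapdh and 3.04, 3.40 and 3.04 for Actb. The part of these values in the differences between pools was not tested.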

How the data were processed

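The deposited values are linear 1-colour intensity readings that the authors had scaled, since trimming 2% at both ends left a mean of 1500.01 on all arrays. The submitters' processing notes name GCOS, with its version and algorithm not given in the sources used here. Per the labels' protocols, kidneys were dissociated in trypsin for 5 min at 37 °C, filtered at 70 micron, sorted, and the RNA amplified in 2 rounds. All values exceeded 0 and log2 needed no pseudocount.

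Of 45101 probe sets, 64 controls were set aside. The platform annotation gave 34945 probe sets 1 symbol, 932 several and 9160 none, and 34741 matched RefSeq (GRCm38.p6) by Entrez ID. Each gene was represented by the probe set of highest mean log2 signal. Log2 signal minus the level was tested one-sided with limma 3.58.1 (R 4.3.3; intercept, eBayes), with Benjamini-Hochberg adjustment over all 45037 probe sets, or over 18193 genes for the lists, at a threshold of 0.05. On simulated data with 18193 genes the fit was checked against known shifts. Separate litters are not stated for the pools, so p-values reflect the spread between these samples and their levels alone, and it may be technical. The number of arrays limits the precision.

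The members and lists were chosen with earlier results of these data known. All member probe sets are named, and in other lists described by gene the first 3 called and the first 2 not called. The cell type lists, apart from muscle and somite, did not follow that rule. From them only the first gene called or the first not called is given, beside Foxc2, Epcam, Gdnf, Sall1, Ccnd1 and Hbb-y. These are given for their part in a sum, and all but Foxc2 were chosen after their values were seen. Of 69 measured genes restricted to other tissues, used for an alternative level, 4 were called. Of 12 immediate early genes, 11 were. No genes of like pattern were sought, since 3 arrays of 1 group give no pattern to match.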

Additional observations from a re-analysis of the deposited data

How the results depend on the processing

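All 10 members stayed above background in each of 12 alternatives of the gene test, and the number of member probe sets above background ran from 15 to 18 over 11 alternatives. Leaving out a replicate gave 16 to 17 member probe sets, 17781 to 18374 probe sets in all and 9951 to 10385 genes. Single member probe sets changed sign in 5 cases. The second Tcf21 probe set came to 0.20 at the 90th percentile. The Tcf4 probe set 1424089_a_at came to -0.0023 with a level from tissue-restricted genes. The Id2 probe set 1422537_a_at came to -0.27 at the 99th percentile, to -0.44 with that level, and to between -0.18 and 0.70 when a replicate was left out. In 8 more cases a probe set passed the threshold and in 1 it no longer did. Centring on the background level put 10 of 10 members highest on replicate 1 and turned the direction of Twist1 (0.41), Twist2 (0.18), Tcf4 (0.11) and Tcf12 (0.13); the level was lowest on replicate 1. Twist1 also turned with values as deposited (0.03, from -0.001). That alternative and the median of genes above background were added after seeing the data. No paired analysis was possible because the series has 1 group. Dim probe sets near the level limit what can be called.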
